A study of Mus musculus and synthetic construct with 15 samples.

Results

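Of the 3820 genomic regions tested as enhancers in mouse heart, 6 lay at the genes of the atrial myosin light chains, 2 at Myl7 and 4 at Myl4. They were chosen by position: the midpoint of a region had Myl7 or Myl4 as its nearest protein-coding gene body within 100 kb. Gene bodies were those of RefSeq on GRCm38 (mm10). Measured values played no part in that rule, but these loci were chosen with earlier results of these data known. Each region is 400 bp long and was carried in a reporter by adeno-associated virus serotype 9 (AAV9). Wild-type pups received the pool at birth (day 0), and each chamber was harvested on day 7. In this massively parallel reporter assay the RNA made from a region is set against the DNA of the same region in the viral pool as sequenced. There were 3 groups of 5 libraries: atrial reporter RNA from AAV9-treated wild-type hearts, ventricular reporter RNA from AAV9-treated wild-type hearts, and DNA of the AAV9 pool itself. The label for cell type is cardiomyocytes, which could not be checked, because the libraries hold reporter counts and no endogenous transcripts.

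Myosin light chains wrap the neck of the myosin heavy chain, 1 regulatory and 1 essential chain to each head. Myl7 encodes the regulatory chain of atrial myosin and Myl4 the essential chain of atrial myosin, while Myl2 and Myl3 encode the regulatory and essential chains of ventricular myosin. In the mouse embryo Myl7 and Myl4 are transcribed more widely in the heart and become largely atrial later, and their transcripts are standard markers of atrial cardiomyocytes. A reporter reads a region outside its place in the genome, so the nearest gene names where a region lies and not the gene it acts on.

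Both Myl7 regions lie on chromosome 11 beyond the 3′ end of the gene, which is read from the minus strand (gene body 5896637 to 5898782). The far Myl7 region (chr11:5889034-5889433) is 7404 bp from the gene body and 9.5 kb downstream of the start site. Its identifier carries the tags GeneAVB, aMTF+p300 and p300AVB, which are used here as given, and the authors' group column calls it "spMTF or spP300". The near Myl7 region (chr11:5892241-5892640) is 4197 bp from the gene body, is tagged GeneAVB and p300AVB, and has the group "TF3-4". Their midpoints are 3207 bp apart, and neither overlaps an annotated gene.

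The Myl4 regions also lie on chromosome 11, 3 of them inside the gene body (104546017 to 104587215, plus strand). In order along the gene these are the first (chr11:104567774-104568173), the second (chr11:104571394-104571793) and the third (chr11:104581447-104581846). The fourth (chr11:104590084-104590483) lies 3069 bp beyond the 3′ end. Exons and introns were not told apart. The first is tagged GeneAVB and p300AVB with the group "TF3-4", and the other 3 are tagged GeneAVB alone with the group "MTF or P300". The second overlaps Gm11663, a pseudogene. Whether reads of a near-identical copy elsewhere were counted with it was not tested.

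The letters of the tested regions were not used here. To show the promoter nearest to the Myl7 regions, the 250 bases before the Myl7 start site are given from the RefSeq promoter table (GRCm38.p6, chr11:5898783-5899032, minus strand), a window that overlaps no tested Myl7 or Myl4 region. Capitals mark the MCAT motif (CATTCC) and the CArG motif of serum response factor:
Myl7 promoter: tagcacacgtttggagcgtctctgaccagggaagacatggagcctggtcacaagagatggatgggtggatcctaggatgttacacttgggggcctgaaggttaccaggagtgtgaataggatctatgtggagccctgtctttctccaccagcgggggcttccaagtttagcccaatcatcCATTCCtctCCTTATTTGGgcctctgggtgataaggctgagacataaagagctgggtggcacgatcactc
The MCAT match begins 70 bp and the CArG match 61 bp before the start. Of 32851 promoter windows of this length, 12.6% hold an MCAT match and 1.47% a CArG match on either strand. The window also holds the NKX2-5 motif (AAGTG, on the other strand), overlapping an E-box (CANNTG) that begins at 168 bp. Of all windows 40.7% hold an NKX2-5 match and 66.2% an E-box. No match was found to the GATA motif (AGATAA), the T-box motif (AGGTGTGA), the TATA motif (TATAAA), the ERR motif (TCAAGGTCA) or the MEF2 motif. Only 1 pattern per motif was searched, on both strands, so other forms of these sites were not counted. The printed window does hold the letters TGATAA and GTGTGA, which the GATA and T-box patterns do not match. The listed Myl4 window (chr11:104550413-104550662, plus strand) held 1 match to AAGTG and none to the other motifs. This window lies inside the Myl4 gene body (104546017 to 104587215) and overlaps the gene body of Cdc27 (104502524 to 104550620). The start site listed for it is thus not the start of the Myl4 gene body, and lies 17.3 kb before the first Myl4 region. These matches describe letters and not binding.

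Library totals ran from 877773 to 2369985 counts in atrial RNA, from 1271527 to 3781726 in ventricular RNA and from 2312820 to 2958271 in DNA. Values below are CPM, counts per 1000000 library counts after 1 TMM scaling of all 15 libraries. RNA over DNA is therefore relative to the bulk of the regions and not an absolute output. The replicate 1 RNA libraries stood apart. A set of 488 regions with 0 counts in all 5 DNA libraries held 0.0197% of atrial and 0.0162% of ventricular replicate 1 counts, against 3.34% to 3.86% in the other atrial and 3.93% to 4.2% in the other ventricular libraries. Results are therefore also given for replicates 2 to 5. Whether the sequenced DNA is the pool that the hearts of replicates 2 to 5 received was not tested, and their RNA over DNA values hold only as far as it is. The fitted comparison of the chambers uses DNA only to choose which regions were tested. CPM values, and chamber comparisons made on them, also share their scaling with the DNA libraries. The labels do not tie replicates to animals, so p-values measure only how far these libraries spread, which may be technical. More cells with reporter RNA and more RNA per cell cannot be told apart in RNA pooled over the cells of a chamber.

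The far Myl7 region had more RNA in atrium than any other member had in either chamber, and 5.25-fold more in atrium than in ventricle. Its atrial libraries held 1573, 1240, 1027, 1141 and 1740 CPM in replicates 1 to 5. Its ventricular libraries held 383.9, 226.9, 233.1, 198.1 and 254.7 CPM, and its DNA libraries 180.9, 180.2, 188.1, 168.6 and 154 CPM. The lowest atrial library lay above the highest ventricular library, and every ventricular library lay above every DNA library. The means were 1344 ± 300.6 CPM in atrium, 259.3 ± 72.5 CPM in ventricle and 174.3 ± 13.4 CPM in DNA (SD, n = 5 each). The log2 fold change of atrium over ventricle was 2.39 ± 0.20 (SE; edgeR quasi-likelihood test, adjusted p = 1.62e-06), the second highest fitted value of the 2601 regions tested. With replicates 2 to 5 alone it was 2.52 ± 0.15, and the difference within replicate 1 was 2.03.

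The near Myl7 region was the most abundant member in the viral pool and had lower CPM in RNA than in DNA in both chambers. Its atrial libraries held 893.4, 756.3, 818.3, 729 and 857.1 CPM. Its ventricular libraries held 474.8, 503.1, 498.4, 441.5 and 702.8 CPM, and its DNA libraries 2426, 2449, 2619, 2314 and 2383 CPM. The atrial values lay above all ventricular values, with ventricular replicate 5 closest to them, and all RNA values lay below DNA. The log2 fold change of atrium over ventricle was 0.64 ± 0.12 (adjusted p = 0.000765), 1.56-fold, and 0.59 ± 0.14 in replicates 2 to 5.

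**Figure D1:**
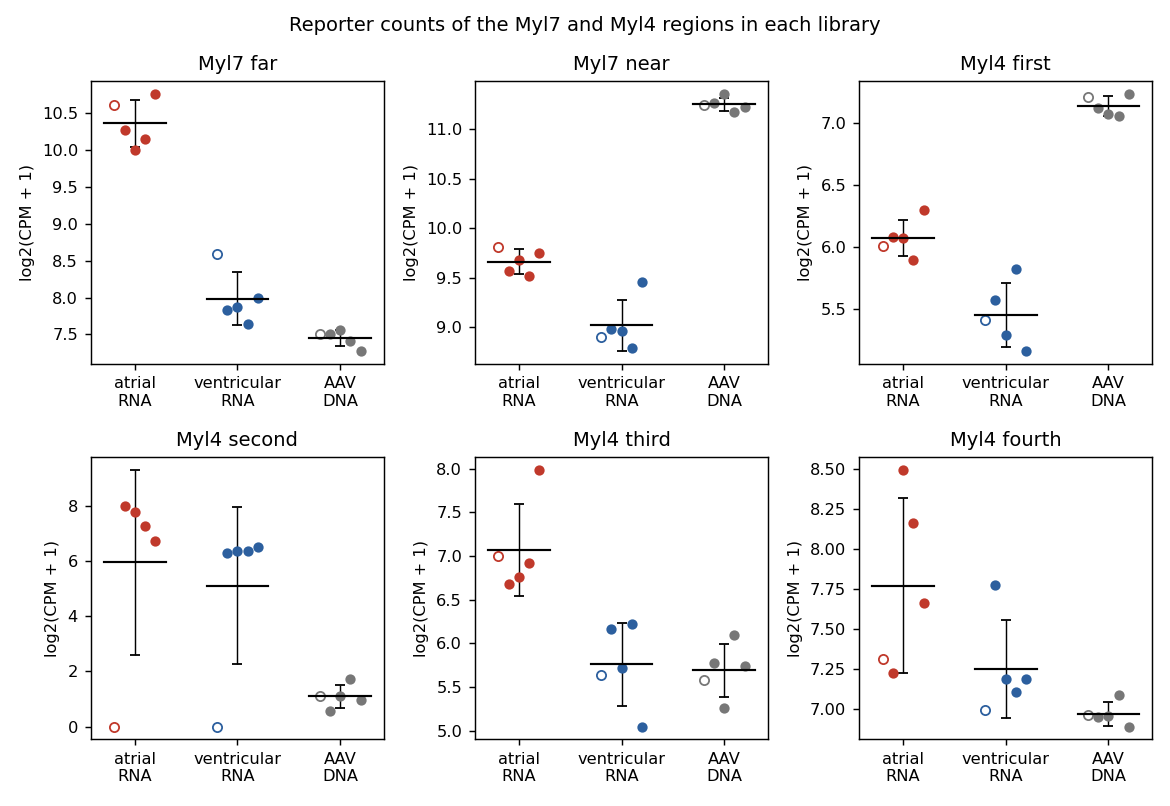
Reporter level as log2(CPM + 1) of each member region in every library, with atrial RNA, ventricular RNA and AAV DNA from left to right and the vertical scale set per panel. Open points are replicate 1, black lines are means and bars the SD (n = 5). The far Myl7 region separates atrium from ventricle by more than any other panel, and the second Myl4 region is at 0 in replicate 1 of both chambers.

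Because both Myl7 regions were read in the same libraries, the ratio of their counts does not depend on any scaling of a library. The far region had 1.76, 1.64, 1.25, 1.56 and 2.03 counts per count of the near region in atrial RNA. It had 0.809, 0.451, 0.468, 0.449 and 0.362 in ventricular RNA and 0.0646 to 0.0746 in DNA. The 3 groups did not overlap. On the log2 scale this ratio was 0.71 ± 0.25 in atrium and -1.03 ± 0.43 in ventricle, a difference of 1.74 (SD, n = 5 each; exact permutation test, two-sided, p = 0.00794, the smallest that 5 against 5 allows). With same-numbered libraries as pairs the exact permutation p was 0.0625, the smallest that 5 pairs allow, and the ratio was higher in atrium in 5 of 5 pairs. Against the DNA ratio of -3.81 ± 0.08 the difference was 4.51 in atrium and 2.77 in ventricle, each with the same exact p of 0.00794. The far region thus made up 55.6% to 67% of the counts of both regions in atrium, 26.6% to 44.7% in ventricle and 6.07% to 6.94% in DNA. This ratio was chosen for testing after the values had been seen.

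The third Myl4 region, inside the gene body, had the largest chamber difference of the Myl4 regions tested. Its atrial libraries held 126.9, 101.7, 107.4, 119.7 and 253.3 CPM. Its ventricular libraries held 48.7, 70.9, 51.7, 73.5 and 32.1 CPM, and its DNA libraries 46.7, 53.9, 37.4, 67.2 and 52.6 CPM. Replicate 5 held both the highest atrial and the lowest ventricular value, and the chambers did not overlap. Ventricular and DNA values did overlap. The means were 141.8 ± 63.1 CPM in atrium and 55.4 ± 17.1 CPM in ventricle (SD, n = 5 each). The log2 fold change was 1.37 ± 0.29 (adjusted p = 0.00195), 2.58-fold, and 1.37 ± 0.33 in replicates 2 to 5. The difference between same-numbered libraries ran from 0.52 to 2.94 on the log2 scale, with the largest in replicate 5, and without atrial replicate 5 the fitted value was 1.04.

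The first Myl4 region was low in RNA and leaned to atrium near the threshold. Its atrial libraries held 63.4, 66.6, 66.2, 58.4 and 77.5 CPM. Its ventricular libraries held 41.4, 46.6, 38.2, 55.5 and 34.8 CPM, and its DNA libraries 131.7 to 149.3 CPM. Every atrial value lay above every ventricular value, by a narrow margin between atrial and ventricular replicate 4. The log2 fold change was 0.63 ± 0.22 (adjusted p = 0.043), 1.55-fold. With the replicate number as a block it was 0.64 (adjusted p = 0.0674) and with replicates 2 to 5 alone 0.64 (adjusted p = 0.0812). Leaving out any of atrial replicates 1, 2, 3 or 5 or ventricular replicates 1, 2, 3 or 5 also ended the call, with adjusted p-values over all alternatives from 0.0161 to 0.101.

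The fourth Myl4 region, beyond the 3′ end, did not pass the test between chambers. Its atrial libraries held 158.1, 148.6, 360.9, 285.9 and 202.1 CPM. Its ventricular libraries held 126.5, 218.5, 145, 137 and 144.6 CPM, and its DNA libraries 117.7 to 135.4 CPM. Ventricular replicate 2 lay above 3 atrial libraries, and atrium was the higher chamber in 4 of 5 replicate numbers. The log2 difference was 0.60 ± 0.25 (95% interval 0.12 to 1.09, adjusted p = 0.0778 by edgeR). Without ventricular replicate 2 it was 0.75 and passed (adjusted p = 0.0377), and without atrial replicate 3 it was 0.37 and did not.

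The second Myl4 region was nearly absent from the DNA libraries, with 3, 1, 2, 5 and 2 counts, and was below the minimum of 10 counts for the fit. In RNA it had 0, 422, 489, 324 and 171 counts in atrium and 0, 208, 271, 291 and 265 counts in ventricle. The 0 counts of replicate 1 allow up to 3.42 CPM in atrium and 2.36 CPM in ventricle, at 3 counts. This limit is scaled by library totals over all regions and is for counting error only. Replicates 2 to 5 held 104.4 to 250.9 CPM in atrium and 76.4 to 90.4 CPM in ventricle, without overlap. On the log2(CPM + 1) scale these were 7.43 ± 0.56 in atrium and 6.38 ± 0.10 in ventricle, a difference of 1.05 (SD, n = 4 each; exact permutation test, two-sided, p = 0.0286, the smallest that 4 against 4 allows). With same-numbered libraries as pairs the exact permutation p was 0.125, the smallest that 4 pairs allow. The paired form could thus not pass whatever the values were, and it does not decide whether the chambers differ. Over all 5 replicates the exact p was 0.46. No RNA over DNA ratio is given for this region, since the DNA libraries held 13 counts of it in all. Its difference between replicate 1 and the other RNA libraries runs with that of the 488 regions described above, and the part of that difference in these values was not tested.

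**Figure D2:**
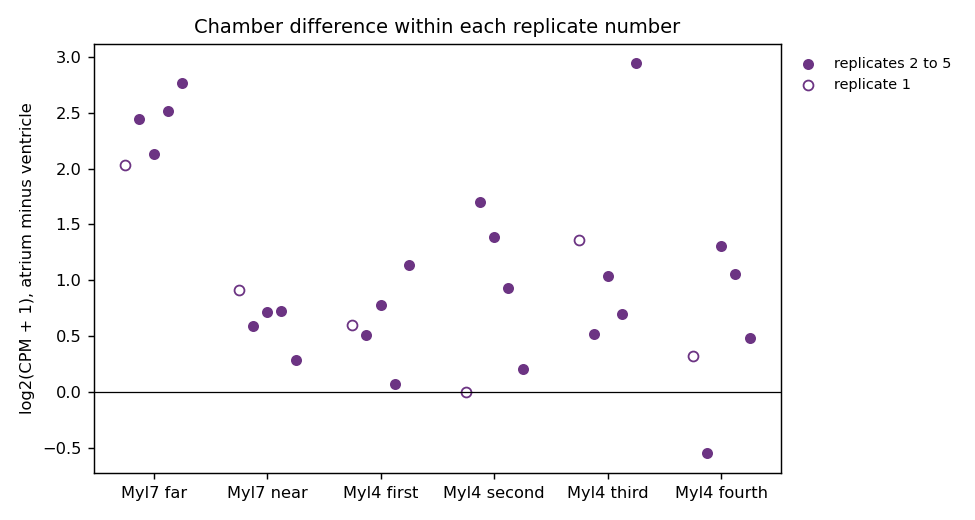
Difference in log2(CPM + 1), atrium minus ventricle, within each replicate number for the 6 member regions, with replicate 1 as open points. The far Myl7 region lies between 2.03 and 2.77 in every replicate number, and the fourth Myl4 region is below 0 in replicate 2.

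Among the 5 members tested between chambers, 4 were called higher in atrium and none in ventricle. Over all 2601 regions tested, 804 were called in either direction (30.9%), 15.8% higher in atrium and 15.1% lower. By count, 412 regions were higher. TMM factors from the Neg regions of the group column gave 563 higher and 237 lower, with all regions' median shifted by 0.15. Under it all 5 members were called higher in atrium. The median log2 fold change was 0.64 for the 5 members and 0.03 for all tested regions. Libraries of the chambers did not overlap, with atrium above, in 4 of the 5 members and in 10% of all tested regions. Over all tested regions the chambers did not overlap in 23%, with atrium below in 13%. Members of a locus share their gene and not their sequence, and 5 regions are too few to set apart from others by count.

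**Figure D3:**
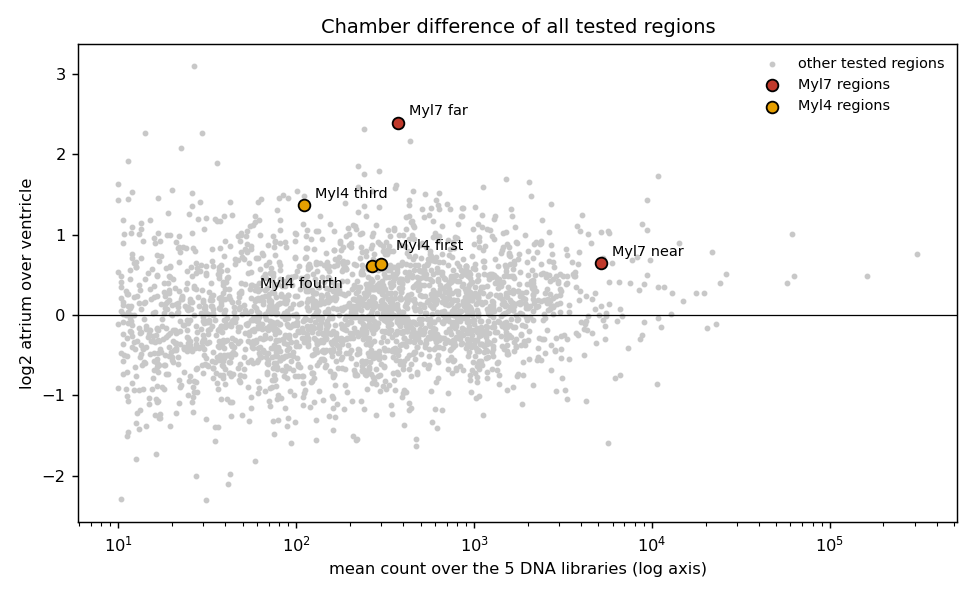
Fitted log2 atrium over ventricle against the mean DNA count (log axis) for the 2601 tested regions, with Myl7 regions in red and Myl4 regions in orange. All 5 tested members lie above 0, and the far Myl7 region lies near the top of the plot at a mean of 372.4 DNA counts.

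Against DNA, 3 of the 5 members were higher and 2 were lower in atrium. In atrium the far Myl7 region had a log2 RNA over DNA of 2.85 ± 0.15 (adjusted p = 8.37e-10), 7.19-fold. The third Myl4 region had 1.35 ± 0.27 (adjusted p = 0.000457) and the fourth 0.79 ± 0.22 (adjusted p = 0.00487). The first Myl4 region had -1.18 ± 0.14 (adjusted p = 4.1e-06) and the near Myl7 region -1.69 ± 0.08 (adjusted p = 3.04e-10). All 5 were thus called, where 74.7% of all tested regions were called, 38.4% higher and 36.3% lower. The split of all regions was 999 higher and 945 lower. With libraries scaled by their totals over the tested regions it was 1312 higher and 600 lower. Under the Neg factors it was 1264 higher and 644 lower. All regions' median shifted by 0.48 and 0.40 under these 2 scalings, and no member changed direction. In replicates 2 to 5 alone the far Myl7 region had 2.77, the third, the fourth and the first Myl4 region 1.37, 0.89 and -1.17, and the near Myl7 region -1.74, and all 5 were called. The atrial and DNA libraries did not overlap for any of the 5 members, nor for 60.4% of all tested regions (31.8% with RNA above, 28.6% with RNA below).

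In ventricle, 3 of the 5 members were called against DNA, where 81.2% of all tested regions were. The same 3 members had no overlap between ventricular and DNA libraries, as had 70% of all tested regions (36.1% with RNA above, 33.8% with RNA below). Higher than DNA was the far Myl7 region, at 0.57 ± 0.15 (adjusted p = 0.00251), and its value was 0.31 ± 0.11 in replicates 2 to 5 (adjusted p = 0.0126). In replicate 1 alone its log2(CPM + 1) lay 1.14 above the DNA mean, against 0.19 to 0.55 in ventricular replicates 2 to 5. Its adjusted p was 0.0851 when regions with little DNA were kept in the fit. The first Myl4 region was lower, at -1.69 ± 0.15 (adjusted p = 1.65e-08), and the near Myl7 region at -2.22 ± 0.11 (adjusted p = 1.17e-11). The fourth Myl4 region had 0.31 ± 0.14 (adjusted p = 0.057) and the third 0.11 ± 0.23 (95% interval -0.34 to 0.55, adjusted p = 0.677), neither of which passed. Over all regions 1129 were higher (43.4%) and 983 lower (37.8%), and 1371 higher and 732 lower by library totals, a shift of 0.37 in the median. With library totals the fourth Myl4 region passed at 0.68 (adjusted p = 0.0008), and under the Neg factors (median shift 0.13) at 0.43 (adjusted p = 0.0102). Without ventricular replicate 2 its value was 0.097 (adjusted p = 0.438). Both comparisons with DNA use the same DNA libraries.

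**Figure D4:**
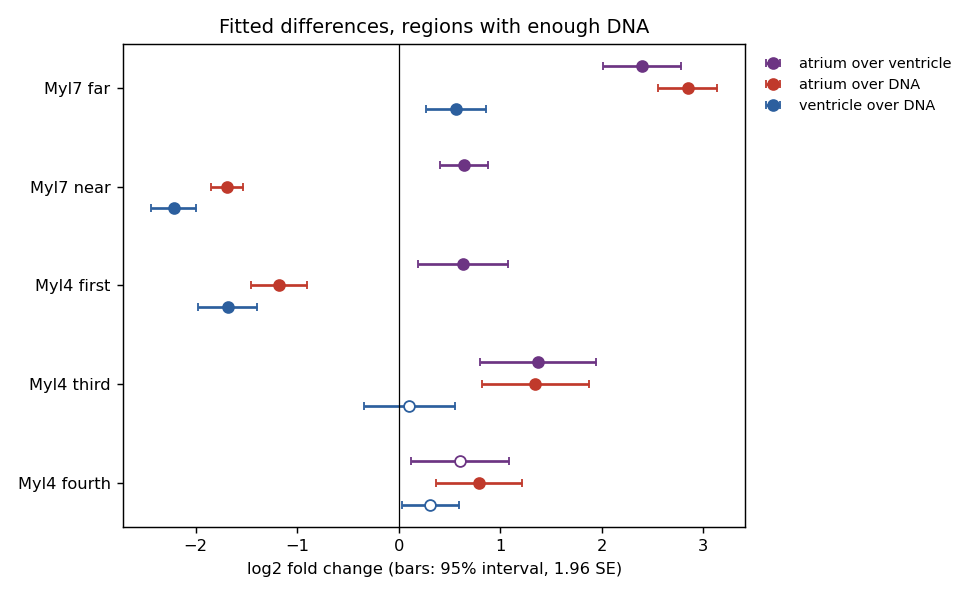
Fitted log2 fold changes of the 5 members with enough DNA, in 3 comparisons, with 95% intervals and filled points for an adjusted p under 0.05. The far Myl7 region lies at 2.85 over DNA in atrium and 0.57 in ventricle, and the near Myl7 and first Myl4 regions are below DNA in both chambers.

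In order of RNA over DNA in atrium, the far Myl7 region came before the third, the fourth and the first Myl4 region, and the near Myl7 region came last. The 95% intervals of the third (0.82 to 1.87) and the fourth (0.36 to 1.22) Myl4 region overlapped, and the other neighbours in this order did not. In ventricle the far Myl7 region and the third and the fourth Myl4 region had overlapping intervals, and the first Myl4 and near Myl7 regions lay below them and apart from each other. Across the library, abundant regions had lower RNA over DNA. The median log2 value in atrium was 1.21 for regions with a mean below 100 DNA counts, 0.20 for those from 100 up to 300, and -0.66 for those above. In the last of these ranges, which holds the far Myl7 region, the 95th percentile of regions was 1.41 in atrium and 1.74 in ventricle. Its own value stood above this in atrium (2.85) and below it in ventricle (0.57). The near Myl7 region had a mean of 5201 DNA counts and lay above the 5th percentile of the same range, which was -2.17 in atrium and -2.36 in ventricle.

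**Figure D5:**
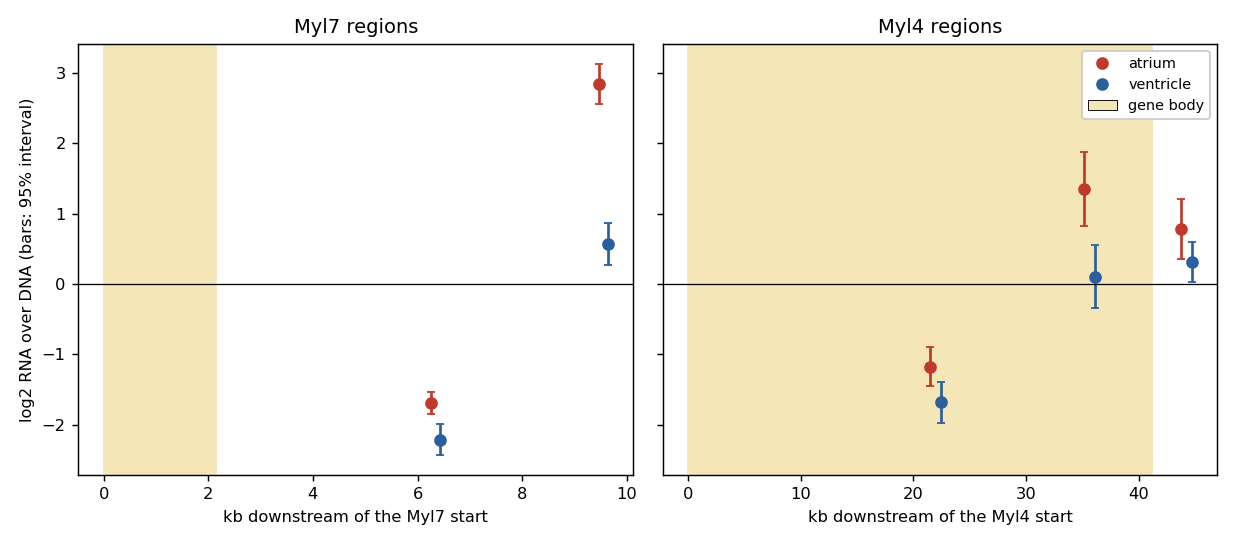
Log2 RNA over DNA in atrium (red) and ventricle (blue) of the 5 members with enough DNA, by distance in kb from the start of the gene body of Myl7 and of Myl4, with 95% intervals and the chambers set slightly apart for view. The shaded band is the gene body, and of the regions beyond the 3′ end of Myl7 the far one is above DNA and the near one below it in both chambers.

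Regions that share tags with a member give a further comparison. Of the 14 regions with the same 3 tags as the far Myl7 region, 12 were tested, and 6 were higher in atrium and 0 in ventricle, with a median log2 fold change of 0.69. Of 46 tested regions with the tags of the near Myl7 and first Myl4 regions, 13 were higher in atrium and 2 in ventricle (median 0.31). Of 715 tested regions tagged GeneAVB alone, as the other Myl4 regions are, 148 were higher in atrium and 99 in ventricle (median 0.10). These counts include the members.

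The genes of the ventricular light chains had 4 regions in the table. At Myl3, a region inside the gene (chr9:110765654-110766053) held 1234 ± 255.4 CPM in atrium and 1843 ± 204.1 CPM in ventricle (SD, n = 5 each), with a log2 fold change of -0.56 ± 0.12 (adjusted p = 0.00236), 1.48-fold lower in atrium. A region 11783 bp from Myl3 had 8.83 ± 6.78 CPM in atrium and 4.75 ± 3.65 CPM in ventricle and did not pass (0.92 ± 0.72, adjusted p = 0.386). At Myl2, the region overlapping the gene (chr5:122092655-122093054) had 92.1 ± 16 CPM in atrium and 59.9 ± 16.8 CPM in ventricle, which did not pass (0.63 ± 0.24, adjusted p = 0.0563). Its RNA over DNA was far below that of most regions, at a log2 value of -3.13 in atrium and -3.62 in ventricle. The other Myl2 region, 3692 bp away, had 0.34 ± 0.18 (adjusted p = 0.167). Differences between Myl7 or Myl4 and Myl2 or Myl3 regions were not tested.

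In wider lists, whose genes were chosen with earlier results of these data known, the counts between chambers ran as follows. Of 12 tested regions at other myosin light chain and light chain kinase genes, which include those of Myl2 and Myl3, 1 was higher in atrium and 2 were lower (median -0.11). The higher one lay inside Mylk4, a gene of the myosin light chain kinase family, at 1383 ± 242.5 CPM in atrium and 694.9 ± 109 CPM in ventricle (log2 1.01 ± 0.13, adjusted p = 3.74e-05). Another region, 20541 bp from Mylk4, was lower in atrium (-0.66 ± 0.19, adjusted p = 0.0144). A region inside Myl12a, a non-muscle regulatory light chain, did not pass (-0.36 ± 0.17, adjusted p = 0.137). Of 14 tested regions at other sarcomere genes 1 was higher and 6 were lower (median -0.28), of 16 at other atrial genes 4 were higher and 1 lower (median 0.34), and of 22 at ventricular genes 2 were higher and 7 lower (median -0.06). The ventricular list shares the Myl2 and Myl3 regions with the light chain list and the Myh7 regions, 2 of them lower in atrium, with the sarcomere list, so those calls are counted in both. By smallest p, the sarcomere list was led by regions at the myosin heavy chain genes Myh7b (-1.59 ± 0.07) and Myh7 (-1.50 ± 0.12) and inside Ldb3, a Z-disc protein gene (-0.54 ± 0.08), all lower in atrium (adjusted p of 3.37e-10, 2.15e-07 and 9.71e-05). At ventricular genes the Myh7 region was followed by regions near Irx4, a ventricular transcription factor gene, at -1.33 ± 0.12 and -1.005 ± 0.098 (adjusted p of 4.09e-07 and 1.14e-06). Other Irx4 regions had -0.71, which passed (adjusted p = 7.84e-05), and 0.58 and -0.63, which did not. The 2 regions of this list that were higher in atrium lay inside Lbh (0.61, adjusted p = 1.68e-05) and 49498 bp from Fhl2 (0.48, adjusted p = 0.00109). The atrial list ran both ways. A region near Tbx5, a T-box factor gene, was higher in atrium (1.89 ± 0.18, adjusted p = 9.08e-07). One 43359 bp from Nr2f2, an atrial transcription factor gene, was lower (-0.77 ± 0.08, adjusted p = 1.25e-06). Other tested regions at Tbx5 had 0.018 and 0.098 and another at Nr2f2 had 0.61, none of which passed. A region near Stard10, a lipid-binding START-domain protein gene, was higher (1.06 ± 0.13, adjusted p = 2.27e-05), and the other 2 Stard10 regions had -0.31 and -0.26 and did not pass.

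The regions most like each member were taken by Pearson's r of log2(CPM + 1) over the 10 RNA libraries, among the 2601 tested regions. These values describe a shared pattern over libraries that also differ in replicate 1, and each r is followed by that over replicates 2 to 5 (8 libraries). Most like the far Myl7 region were regions inside Plekhh1 (r = 0.991, and 0.995 in replicates 2 to 5), inside Fcamr (0.986 and 0.988) and, far from any protein-coding gene body, on chromosome 13 (0.976 and 0.988). Over the 10 libraries 76 tested regions had an r above 0.9 with the far Myl7 region, and 21 with the near one. For the first, the third and the fourth Myl4 region the number was 10, 13 and 1. Most like the near Myl7 region were regions inside Ppard (0.96 and 0.96), Kdm6b (0.94 and 0.93) and Mylk4 (0.93 and 0.93). The Stard10 region was most like both the first (0.96 and 0.97) and the third (0.95 and 0.96) Myl4 region. Next to it came regions at Iqsec1 (0.957 and 0.956) and Adamts8 (0.949 and 0.940) for the first, and at Cystm1 (0.947 and 0.949) and Gm42048 (0.947 and 0.939) for the third. The fourth Myl4 region was most like regions at Slc39a11 (0.954 and 0.950), Fhl2 (0.874 and 0.883) and Zfp423 (0.873 and 0.884). Of the regions named in this paragraph, those at Ppard, Gm42048, Slc39a11 and Zfp423 carry the tag ESC-Neg, which by its name marks negative controls. Among the members, over the 10 libraries, the first and the third Myl4 region had the highest r (0.94), the Myl7 regions had 0.87, and the fourth Myl4 region had 0.42 to 0.48 with the other tested members.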

How the data were processed

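Whole-number counts per region were deposited by the authors for each library and again as a table of the series, with 0 differing values. Per the submitters' processing notes, cutadapt 2.5, Bowtie2 2.3.4.3 and mm10 were used. Per the labels' protocols the copying primer carried a molecular identifier. The sources used here do not say if reads or collapsed identifiers were counted.

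Regions with a mean of at least 10 DNA counts (2601, 5 of them members) were fitted in R 4.3.3 with edgeR 4.0.16 (glmQLFit and glmQLFTest, robust, TMM), 5 against 5 libraries, with Benjamini-Hochberg adjustment over all 2601 and a threshold of 0.05. SE come from the log2 fold change and F. Displayed CPM use counts summed over these 2601 regions and 1 TMM scaling over 15 libraries, so their ratios can differ slightly from the fitted values. Where library totals served as the scaling of a fit, they were totals over the regions fitted. Single values used exact permutation tests. Ties in nearest gene went to the shorter gene. Alternatives were DESeq2 1.42.0, voom of limma 3.58.1, other scalings and filters, a replicate block and left-out libraries. The fit was tested on simulated data.

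All members are named. For each, the 3 regions highest in r were named. From gene lists the Myl2 and Myl3 regions were named, and up to 3 others per list with the smallest p. The other regions at Stard10, Tbx5, Nr2f2 and Irx4, and those at Lbh and Fhl2, were added after their values were seen. Members and lists were chosen with earlier results of these data known. No replicate pair agreed within sampling noise (lowest chi-square per degree of freedom 1.79). Deviations of atrial and ventricular libraries of 1 number from their group means had r of 0.819 over regions in replicate 1. In the other replicates r was 0.225 to 0.241. All meet the criterion of 0.1 used for pairs, though 2 of 5 correlated best with their own number. The group means include replicate 1, which stood apart in both chambers, so replicates 2 to 5 of any number share part of its deviation. These r thus cannot show whether libraries of 1 number belong together. The main tests have no block, and the paired forms are alternatives. For RNA and DNA libraries of 1 number r was -0.0316 to 0.0606. The labels give only the numbers. A comparison with regions nearer to other genes around Myl7 is not reported here.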

Additional observations from a re-analysis of the deposited data

Results flagged for a closer look

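Values in single libraries stood apart from the other 4 of their group by Dixon's criterion, which chance meets in about 1 in 20 groups, and 18 groups of 5 were examined. The near Myl7 region was high in ventricular replicate 5 at 702.8 CPM. The third Myl4 region was high in atrial replicate 5 at 253.3 CPM, and the fourth was high in ventricular replicate 2 at 218.5 CPM. The second Myl4 region was at 0 CPM in replicate 1 of atrium and at 0 CPM in replicate 1 of ventricle.

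RNA over DNA differed between chambers, by the test of atrium over ventricle, in 4 members: the far Myl7 region (log2 difference 2.39), the near Myl7 region (0.64), the first Myl4 region (0.63) and the third Myl4 region (1.37).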

How the results depend on the processing

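Of the 15 results for single members in the 3 comparisons, 10 kept their direction and side of the threshold under every alternative run. The exceptions were the first and the fourth Myl4 region between chambers and, in ventricle over DNA, the far Myl7 region and the third and the fourth Myl4 region. The third Myl4 region, not called there, changed sign to -0.131 without a filter, -0.088 with filterByExpr, -0.060 without ventricular replicate 2 and -0.097 without ventricular replicate 4, and was 0.219 at most with a library left out. Calls for the fourth Myl4 region between chambers appeared with DESeq2, Neg scaling, a replicate 1 term (chosen after seeing the data), and without atrial replicate 1 or 2 or ventricular replicate 2 (0.37 to 0.75 over left-out libraries). Over all regions, atrium over DNA gave 2952 calls without a filter and 1280 at a mean DNA count of 100 or more, and ventricle over DNA gave 3171 without a filter, as more or fewer regions were tested. Between chambers, 667 to 805 regions and 3 to 4 members were called with a library left out. The replicate block gave 869 regions and 3 members between chambers, and ended the call of the first Myl4 region only. Among the exact tests between chambers, pairing (chosen after seeing the data) gave p = 0.125 for the second Myl4 region and 0.0625 for the ratio of the Myl7 regions, the smallest that 4 and 5 pairs allow. Members were 6 within 50 kb and 5 when genes of any type were used, since the second Myl4 region then fell to Gm11663. With 13 DNA counts in all, the second Myl4 region allowed no RNA over DNA ratio.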
